A study of Mus musculus with 16 samples.

Results

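The steroid hormone receptors Esr1, Esr2, Nr3c1 and Nr3c2 and the related receptor Esrra were followed in early B lineage fractions sorted from fetal liver and adult bone marrow of BALB/c mice. The array carried 9 probes whose annotation names these 5 genes, and all 9 are accounted for below. Of these, 5 probes for 4 genes were bright enough for the test, among 22228 genes or unnamed transcripts tested in all. Esr1 was chosen by its measured difference between the tissues, and the other 4 to go with it by name, so Esr1 values are given as a description with no test, and tests are given only for Nr3c1, Nr3c2 and Esrra.

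The study comprised 16 arrays in 4 groups of 4: Fr.B/C of fetal liver (FL), Fr.B/C of bone marrow (BM), Fr.A of FL and Fr.A of BM. Fr.A and Fr.B/C are the pre-pro-B and pro-B fractions of the Hardy scheme of B cell development. All animals were BALB/c and, per the series title, wild type, with no treatment. Each of 4 FL sorts took livers from 1 litter on gestation day 16, with 8 embryos on average, whose sex the labels do not give. Each of 4 BM sorts pooled femora and tibiae of 16 adult females. Both fractions came from every sort, with 1 array each, so a replicate is a pool of animals, and the number of pools limits the precision. The other channel of every array held the same reference RNA, prepared from 6 cell lines (P388d, DN3, EL4, J558, RS2 and R1), and every value below is the log2 ratio of the sample over that reference. Age, tissue and scan session differed together between FL and BM and cannot be told apart. Sex may differ with them, since the BM animals were all female and the sex of the embryos is not given.

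Steroid receptors are transcription factors that bind a hormone, move to or act in the nucleus, and change the rate at which target genes are read. In the bone marrow, oestrogen is known to lower the output of early B cells, and glucocorticoids kill immature lymphocytes, so the receptors of both hormones have long been studied in this lineage. Esr1 encodes oestrogen receptor alpha, Esr2 oestrogen receptor beta, Nr3c1 the glucocorticoid receptor and Nr3c2 the mineralocorticoid receptor. Esrra encodes oestrogen-related receptor alpha, an orphan receptor that resembles the oestrogen receptors but binds no known natural steroid and acts on genes of mitochondrial energy supply.

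The 2 Esr1 transcription starts in RefSeq are shown because Esr1 had the largest differences among the 5 genes. Each line gives the 250 bases before a start on the plus strand of GRCm38.p6, at chr10:4611739-4611988 for start 1 and chr10:4709908-4710157 for start 2. Capitals mark the single match, on the minus strand, to TTTC, any 2 bases, TTTC, the core of the interferon-stimulated response element.
Esr1 start 1: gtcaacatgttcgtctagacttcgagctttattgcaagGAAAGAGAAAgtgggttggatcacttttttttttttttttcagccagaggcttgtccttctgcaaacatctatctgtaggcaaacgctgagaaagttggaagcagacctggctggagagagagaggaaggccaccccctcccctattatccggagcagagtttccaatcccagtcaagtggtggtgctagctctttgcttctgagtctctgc
Esr1 start 2: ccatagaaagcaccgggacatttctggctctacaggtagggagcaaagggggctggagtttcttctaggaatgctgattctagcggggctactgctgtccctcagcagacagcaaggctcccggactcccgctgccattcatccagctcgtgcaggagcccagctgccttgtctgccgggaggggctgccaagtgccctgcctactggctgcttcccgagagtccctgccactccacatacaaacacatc
That core was found on either strand in 2.97% of 32817 windows of the same length before mouse gene starts. Neither Esr1 window holds AGGTCA, the core bound by oestrogen receptors and Esrra (14% of windows), TGTTCT, the core bound by the glucocorticoid, mineralocorticoid and progesterone receptors (16.1%), or CCCNNGGG, the core of the motif of the B lineage factor Ebf1 (11.8%). The windows of Esr2 and Nr3c2 hold 1 CCCNNGGG each, 243 and 94 bases before the start, that of Esrra holds none of the 4 motifs, and no window was given for Nr3c1. The motifs were chosen with the array results known, and a match or its absence describes only these letters.

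The arrays had a median sample signal of 71.2 to 162, and 52.9 to 68.3% of probes were well above background by the scanner software's call. The fractions were checked against marker genes. Of 15 B lineage markers, 7 were higher and 5 lower in Fr.B/C than in Fr.A in FL, and 7 were higher and 3 lower in BM. Between the fractions, 9.96% of all genes were higher and 12.7% lower in FL, and 13.5% higher and 18.7% lower in BM. Dntt, which adds nucleotides at antibody gene junctions in adult but hardly in fetal precursors, had differences, FL minus BM, of -9.03 in Fr.B/C and -8.81 in Fr.A on its tested probe, while its other 2 probes gave -8.68 and -3.7 in Fr.B/C and -9.04 and -3.72 in Fr.A. Of the 15 B lineage markers, 8 were lower in FL in Fr.B/C and 5 in Fr.A. Over all genes, 13.9% were higher and 14.8% lower in FL in Fr.B/C, and 12.2% higher and 17.1% lower in Fr.A. Of 11 erythroid markers, 8 were higher and 0 lower in FL in Fr.B/C, and 9 were higher and 1 lower in Fr.A. Their mean log2 ratio was 1.88 to 2.70 in FL Fr.B/C, 0.60 to 0.81 in BM Fr.B/C, 1.76 to 2.82 in FL Fr.A and 0.89 to 1.05 in BM Fr.A. Of 14 myeloid markers, 7 were lower in FL in each fraction, and 3 were higher in FL in Fr.A. Of 8 dendritic cell markers, 6 were lower in Fr.B/C than in Fr.A in both tissues. In FL against BM, 0 of them were higher and 2 lower in Fr.B/C, and 3 higher and 2 lower in Fr.A. Of 12 NK and T cell markers, 1 was higher and 4 lower in FL in Fr.B/C, and 0 higher and 6 lower in Fr.A. Of 9 hepatocyte markers on the array, every replicate detected 4 in FL Fr.B/C, 3 in BM Fr.B/C, 4 in FL Fr.A and 4 in BM Fr.A. Afp, Trf and Hnf4a were detected on all 16 arrays, and Alb was on 2 arrays of FL Fr.A and on 0 of the other groups. Of the 5 that could be tested, 2 were higher and 1 lower in FL in Fr.B/C, and 0 higher and 2 lower in Fr.A. These are bulk samples, in which fewer cells of a type and less RNA per cell cannot be told apart, and the part of other cell types in the results below was not tested.

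Esr1 was at the level of the reference, itself near background, in both FL fractions and far above it in both BM fractions. In Fr.B/C, Esr1 probe 1 had log2 ratios of -0.12, -0.13, -0.02 and -0.04 on the FL arrays, against 4.06, 4.41, 4.10 and 4.30 on the BM arrays. The groups were 4.08 apart at their nearest arrays, and none of the 4 FL arrays was well above background. In Fr.A, the probe had log2 ratios of 0.25, 0.01, 0.05 and -0.07 on the FL arrays, against 3.07, 3.7, 3.41 and 3.18 on the BM arrays. The nearest arrays were 2.82 apart here, and 2 of the 4 FL arrays were well above background. The means were -0.08 ± 0.06 in FL Fr.B/C, 4.22 ± 0.16 in BM Fr.B/C, 0.06 ± 0.14 in FL Fr.A and 3.34 ± 0.28 in BM Fr.A (SD, n = 4 each).

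The mean difference, FL minus BM, was -4.30 in Fr.B/C and -3.28 in Fr.A. As a fold, Esr1 was at least 19.4-fold lower in FL Fr.B/C than in BM Fr.B/C. For this bound each FL array was taken at its own signal or at the lowest signal well above background on it, whichever was higher. The mean log2 signal in FL Fr.B/C (6.12) lay slightly above the mean of those lowest signals (6.07). The bound is therefore close to the measured 19.6-fold and is no separate detection limit. With any array left out, the difference stayed between -4.34 and -4.24 in Fr.B/C and between -3.37 and -3.16 in Fr.A. The log2 ratios deposited by the authors for the same probe, whose background handling is not stated, differed by -6.19 in Fr.B/C and by -5.13 in Fr.A.

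**Figure D1:**
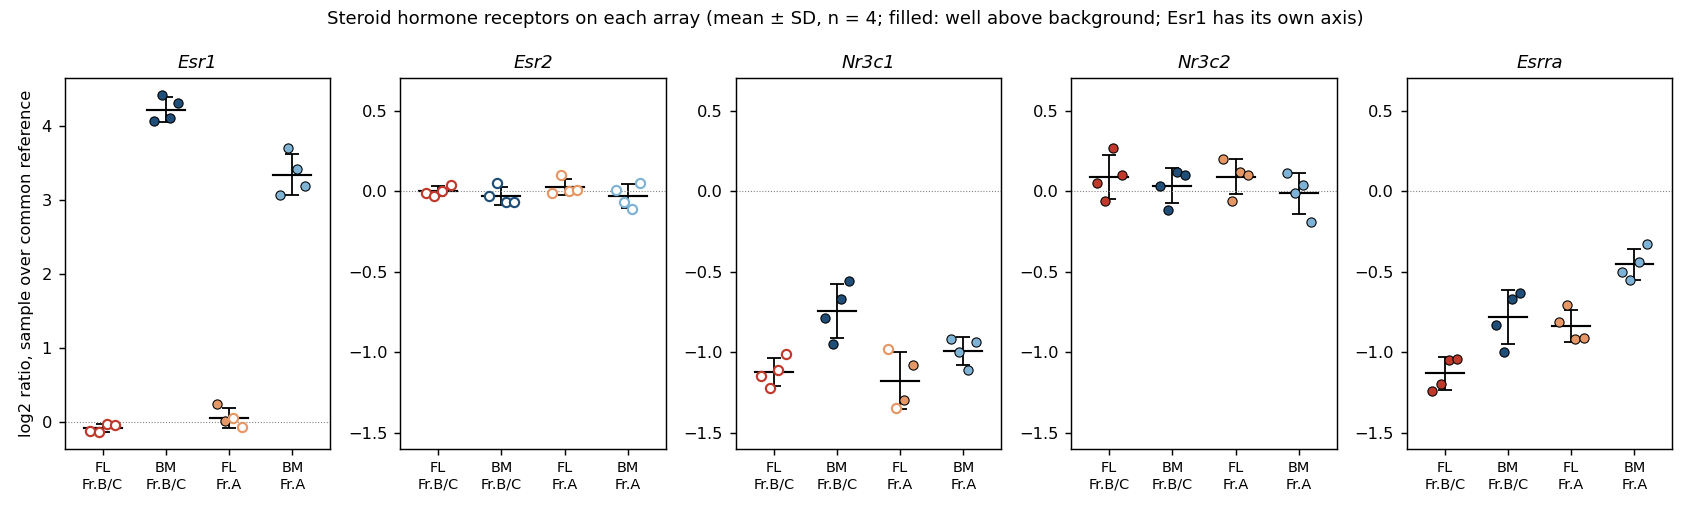
Log2 ratio of sample over common reference (vertical axis, no unit) for the first probe of each of the 5 genes on each of 16 arrays, by group, with mean and SD (n = 4). Open points were not well above background. Esr1 lies between 3.07 and 4.41 in BM and between -0.13 and 0.25 in FL, and Esrra between -1.24 and -0.33 over all groups.

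The difference lay in the sample channel. The processed signal of Esr1 probe 1 in the sample channel was 48.6 to 66.7 in FL Fr.B/C, 7360 to 10300 in BM Fr.B/C, 64.6 to 186 in FL Fr.A and 3900 to 5710 in BM Fr.A. The reference channel read 48.5 to 74.9 beside FL Fr.B/C, 72.4 to 150 beside BM Fr.B/C, 67.8 to 118 beside FL Fr.A and 72.0 to 129 beside BM Fr.A, and was well above background on 1 array of each group. The sample signals of FL and BM lay far apart, and those of the reference overlapped or nearly met.

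The other Esr1 probe did not show this. Probe 2 lies 1990 bases further along chromosome 10 than probe 1 in the array's annotation (5506093 to 5506152, against 5504103 to 5504162, in a build not given in the sources used here), which names no exon. Its log2 ratios spanned -0.11 to 0.20 over the 16 arrays, and its sample signal was well above background on 2 arrays, 1 of BM Fr.B/C and 1 of BM Fr.A. In the deposited log2 ratios its mean was 0.10 ± 0.09 in FL Fr.B/C, 0.56 ± 0.20 in BM Fr.B/C, -0.17 ± 0.21 in FL Fr.A and 0.19 ± 0.24 in BM Fr.A (SD, n = 4 each). The levels given for Esr1 therefore rest on probe 1.

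**Figure D2:**
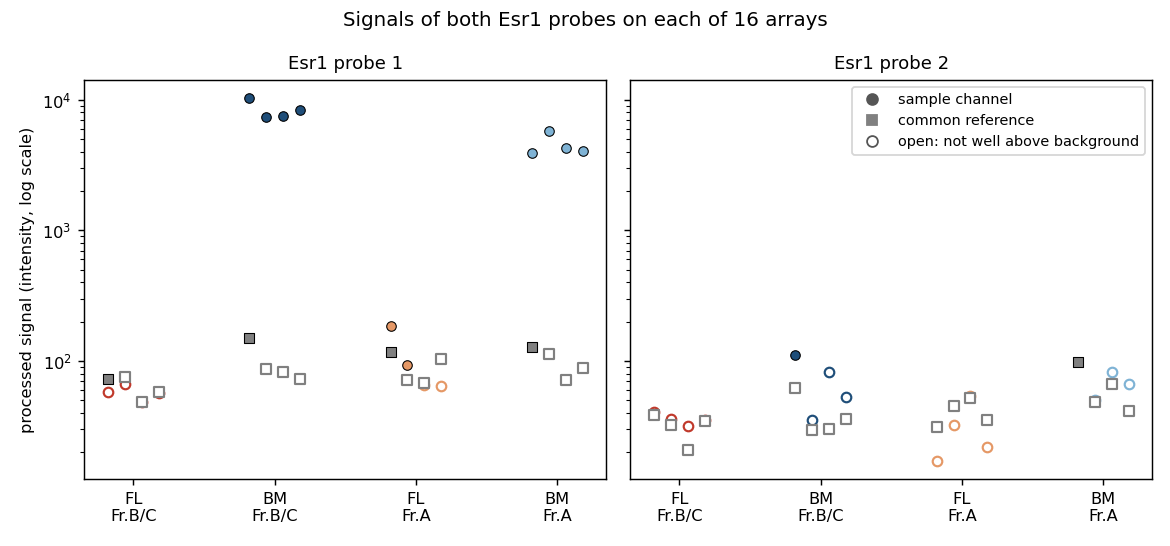
Processed signal (intensity, log scale) of both Esr1 probes in the sample channel (circles) and the common reference (squares) on each of 16 arrays, by group. Open symbols were not well above background. For probe 1 the BM samples lie at 3900 or more and all FL samples at 186 or less, and the reference lies between 48.5 and 150 over all arrays.

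Between the fractions, Esr1 was higher in Fr.B/C than in Fr.A in BM and not in FL. In BM the difference was 0.88, or 1.84-fold, with 0.36 between the nearest arrays of the groups. Scan sessions that held both BM fractions gave 1.02, 0.69 and 1.12, and leaving out any array gave 0.79 to 1.00. In FL the difference was -0.14, the 2 fractions overlapped, and the 2 FL sessions gave -0.26 and -0.02. Ordered from high to low, the Esr1 levels were BM Fr.B/C, BM Fr.A, FL Fr.A and FL Fr.B/C, and the last pair did not differ beyond their spread.

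The genes whose log2 ratios were most like those of Esr1 over the 16 arrays, with the dye effect removed, were Ifi44l (Pearson r 0.997), Iigp1 (0.994), H2-Bl (0.99), H2-Q1 (0.988) and H2-Q7 (0.987). Ifi44l is known as an interferon-induced gene, Iigp1 encodes an immunity-related GTPase, and the H2 genes encode class I major histocompatibility proteins. Ifi44l averaged -0.16 in FL Fr.B/C, 4.03 in BM Fr.B/C, -0.04 in FL Fr.A and 3.35 in BM Fr.A. The H2 genes are close copies of each other, so their probes may read several of them. The arrays share the reference and fall into FL and BM sets, so these values describe likeness only.

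Esr2 was not detected. Its single probe, on chromosome 12 at 72977798 to 72977857 in the array's annotation, was not well above background on any of the 16 arrays, in either tissue or fraction, and its log2 ratios spanned -0.11 to 0.10. The processed sample signal lay between 23.3 and 75.6 on all arrays. A transcript below the array's background would give the same reading.

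Esrra was measured well above background on all 16 arrays, by a probe on chromosome 19 at 6624958 to 6625017 in the array's annotation, and was lower in FL than in BM, and lower in Fr.B/C than in Fr.A. In Fr.B/C its log2 ratios were -1.24, -1.20, -1.05 and -1.04 in FL, against -0.83, -1.0, -0.67 and -0.63 in BM. In Fr.A they were -0.81, -0.71, -0.92 and -0.91 in FL, against -0.50, -0.55, -0.44 and -0.33 in BM. The 4 groups followed the order BM Fr.A, BM Fr.B/C, FL Fr.A and FL Fr.B/C, in which BM Fr.B/C (-0.78 ± 0.17) and FL Fr.A (-0.84 ± 0.10, SD, n = 4 each) overlapped.

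The difference in Esrra, FL minus BM, was -0.35 ± 0.09 (SE) in Fr.B/C (limma, adjusted p = 0.0119) and -0.38 ± 0.09 in Fr.A (adjusted p = 0.00657), or 1.27-fold and 1.30-fold lower in FL. The difference, Fr.B/C minus Fr.A, was -0.30 ± 0.09 in FL (adjusted p = 0.0339) and -0.33 ± 0.09 in BM (adjusted p = 0.0145). In each of these 4 comparisons the 4 arrays of a group lay apart from the 4 of the other, which also held for 29.6% of all genes in Fr.B/C, 26.1% in Fr.A, 24.1% between the FL fractions and 29.5% between the BM fractions. The fraction step did not pass the test of a difference between the tissues (0.03 ± 0.13, adjusted p = 0.932, 95% interval -0.26 to 0.33).

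The tissue difference in Esrra kept its call with any array left out, and with scan session as a random block it was -0.35 in Fr.B/C (adjusted p = 0.0231) and -0.40 in Fr.A (adjusted p = 0.0124). It lost it in both fractions in the fits on fewer values: averaged pairs of arrays (adjusted p = 0.118 in Fr.B/C and 0.0902 in Fr.A), Cy5 arrays alone (0.123 and 0.109) and Cy3 arrays alone (0.377 and 0.258). The fraction step in BM missed the threshold without BM_FrA replicate 4 or BM_FrBC replicate 2 (adjusted p up to 0.054), over a range of -0.38 to -0.25. In FL it missed it without FL_FrA replicate 1 or 2 or FL_FrBC replicate 1 or 2 (adjusted p up to 0.0986), over a range of -0.33 to -0.25. Within scan sessions, Fr.B/C minus Fr.A was -0.46 and -0.13 in the 2 FL sessions and -0.47, -0.23 and -0.30 in 3 BM sessions. The genes most like Esrra over the 16 arrays were Naxd (r 0.975), Nckap1l (0.963), Vps18 (0.959), Gpr65 (0.957) and Orai3 (0.956).

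Nr3c1, on its tested probe, was lower in FL than in BM in Fr.B/C. Probe 1 had log2 ratios of -1.15, -1.22, -1.11 and -1.01 in FL Fr.B/C, against -0.79, -0.95, -0.67 and -0.56 in BM Fr.B/C. The groups lay apart, and the sample channel was well above background on none of the 4 FL arrays and on all 4 BM arrays. The difference was -0.38 ± 0.10 (SE, by limma, adjusted p = 0.0119), and as a bound Nr3c1 was at least 1.11-fold lower in FL. The probe was bright enough for the test only through the BM groups, where it was higher. The filter thus bears on this p-value, which is no separate support for a lower level in FL. In Fr.A the values were -0.98, -1.35, -1.30 and -1.08 in FL, 2 of them well above background, against -0.92, -1.0, -1.11 and -0.94 in BM. These groups overlapped, and the difference of -0.19 ± 0.10 did not pass (adjusted p = 0.208). In the deposited table the same probe averaged -2.64 in FL Fr.B/C, -1.33 in BM Fr.B/C, -2.54 in FL Fr.A and -2.16 in BM Fr.A.

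Between the BM fractions, the Nr3c1 difference of 0.25 ± 0.10 did not pass (adjusted p = 0.0782), but the same difference passed in the fit that paired the fractions of a sort (adjusted p = 0.041) and without BM_FrBC replicate 2 (0.33, adjusted p = 0.0293). It did not pass with scan session as a random block (adjusted p = 0.0564) or as a fixed block (adjusted p = 0.0882). Scan sessions gave 0.01, 0.44 and 0.38. In FL the difference was 0.06 ± 0.10 (adjusted p = 0.772). The fraction steps in FL and BM differed by -0.19 ± 0.15 (adjusted p = 0.503). The genes most like Nr3c1 over the arrays were Niban1 (r 0.923), Pias3 (0.918), Gpr19 (0.906), Egr2 (0.896) and Zfp3 (0.896).

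The second Nr3c1 probe followed the dye and not the groups. It was well above background on 15 of 16 arrays, with log2 ratios of -0.06 to 0.37 on the 8 arrays with the sample in Cy5 and of -0.43 to -0.07 on the 8 with the sample in Cy3. With the dye in the fit, its difference, FL minus BM, was 0.03 ± 0.10 in Fr.B/C (adjusted p = 0.837) and -0.12 ± 0.10 in Fr.A (adjusted p = 0.4). The lower Nr3c1 level in FL Fr.B/C therefore rests on probe 1.

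Nr3c2 passed in none of the 5 tests. Its tested probe was well above background on all 16 arrays, with log2 ratios of -0.06 to 0.27 in FL Fr.B/C, -0.12 to 0.12 in BM Fr.B/C, -0.06 to 0.20 in FL Fr.A and -0.19 to 0.11 in BM Fr.A, so that all groups overlapped. The difference, FL minus BM, was 0.06 in Fr.B/C (95% interval -0.12 to 0.24, adjusted p = 0.645) and 0.10 in Fr.A (-0.08 to 0.28, adjusted p = 0.416). Fr.B/C minus Fr.A was 0.00 in FL (-0.18 to 0.18, adjusted p = 0.999) and 0.04 in BM (-0.14 to 0.22, adjusted p = 0.764). The other 2 Nr3c2 probes were well above background on 2 and 0 of the 16 arrays, with log2 ratios of -0.13 to 0.39 and -0.22 to 0.22.

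Of the 3 receptors tested, 2 passed in FL against BM in Fr.B/C, where 28.6% of all genes passed, and 1 in Fr.A, where 29.4% passed. In Fr.B/C 1 of the 2 was Nr3c1, whose p-value the filter bears on as stated above. Between the fractions, 1 of 3 passed in FL (22.7% of all genes) and 1 in BM (32.2%). None of the 3 passed the test of a difference between the fraction steps by limma, nor had an unadjusted p under 0.05 there, against 7.35% of all genes that passed (4.36% with a higher and 2.98% with a lower step in FL). With shares of this size over all genes, the count of receptors called is not in itself a result.

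**Figure D3:**
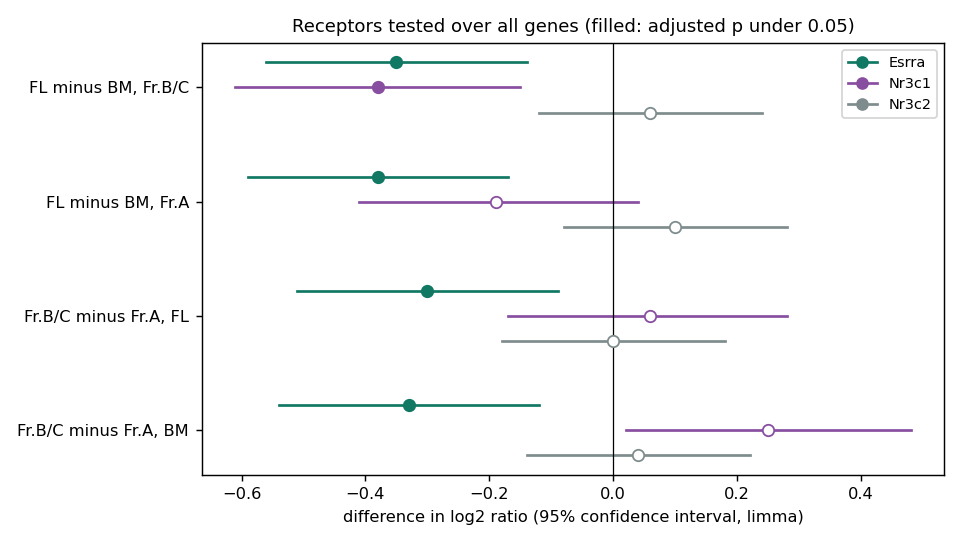
Difference in log2 ratio (horizontal axis) with its 95% confidence interval from limma for Esrra, Nr3c1 and Nr3c2 in the 4 comparisons. Filled points passed at an adjusted p under 0.05. All 4 Esrra differences lie between -0.38 and -0.30, and every Nr3c2 interval spans 0. The filter on dim probes bears on the Nr3c1 call in Fr.B/C.

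Of the closest relatives outside these 5 genes, the progesterone receptor Pgr and the orphan receptors Esrrb and Esrrg are described here. Pgr, a textbook target of oestrogen receptor alpha in reproductive tissues, had log2 ratios of -0.05, -0.02, -0.05 and -0.09 in FL Fr.A, against 0.78, 0.57, 0.93 and 0.88 in BM Fr.A. It was at least 1.55-fold lower in FL there (-0.84 ± 0.12 SE, limma adjusted p = 9.41e-05). Pgr was bright enough for the test only through BM Fr.A, where it was highest, so the filter bears on its p-values. In Fr.B/C it had 0.00, 0.15, 0.03 and 0.16 in FL, none of them well above background, against 0.24, 0.26, 0.78 and 0.73 in BM, of which 2 were. The difference of -0.42 ± 0.12 passed (adjusted p = 0.0189, at least 1.21-fold), but not without BM_FrBC replicate 3 or 4 or FL_FrBC replicate 1 or 3. Esrrb was higher in Fr.B/C than in Fr.A in FL (0.48 ± 0.13, adjusted p = 0.0145), a call lost without FL_FrA replicate 3 or FL_FrBC replicate 3. Its difference in BM was 0.35 ± 0.13 (adjusted p = 0.0555). Esrrb was bright enough for the test only through Fr.B/C, so the filter bears on these p-values too. Esrrg passed in none of the 4 comparisons of 2 groups, with 0.20 ± 0.08 in Fr.A, FL minus BM (adjusted p = 0.0812).

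**Figure D4:**
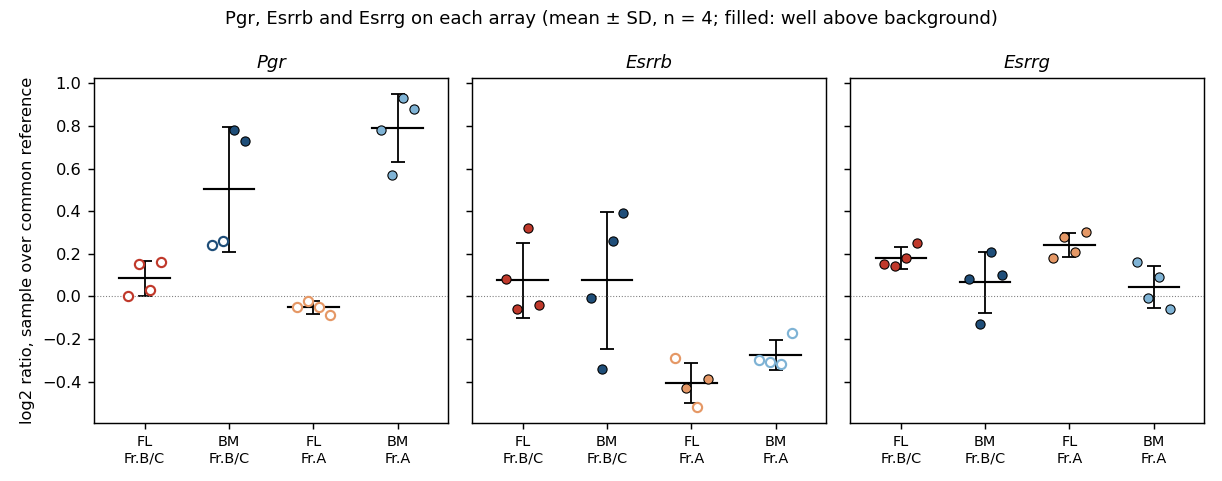
Log2 ratio of sample over common reference (vertical axis) of Pgr, Esrrb and Esrrg on each of 16 arrays, with mean and SD (n = 4). Open points were not well above background. Pgr stands at 0.57 to 0.93 in BM Fr.A and at 0.16 or less on all FL arrays.

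Of 39 other nuclear receptors, 28 were bright enough to test. In Fr.A 7 were lower in FL and 0 higher, with a median difference of -0.13, where 17.1% of all genes were lower and 12.2% higher. They included Rora, an orphan receptor that acts in lymphoid lineages (-1.34 ± 0.13, adjusted p = 1.06e-06). Also among them were the thyroid hormone receptor Thra (-1.0 ± 0.18, with -0.56 at its other probe) and Nr4a1, an early response gene (-0.98 ± 0.16). Rora was bright enough for the test only through BM Fr.A, where it was highest, so the filter bears on its p-value. In Fr.B/C 3 were lower in FL, among them Nr4a1 (-0.71 ± 0.16) and Nr2c2 (-0.52 ± 0.11), and 2 were higher, Nr2f6 (0.26 ± 0.09) and the clock repressor Nr1d1 (0.44 ± 0.12, adjusted p = 0.0112, with 0.14 at its other probe). The median difference there was 0.10, and of all genes 14.8% were lower and 13.9% higher. These 5 calls in Fr.B/C became 3 without BM_FrA replicate 4, BM_FrBC replicate 1, 3 or 4, FL_FrA replicate 4 or FL_FrBC replicate 1, and 8 with the replicate numbers as a block. Over 14 other settings of the processing, this block included, the count ranged from 0 to 8. Nr1h2, the third receptor lower in FL (-0.44 ± 0.15, adjusted p = 0.0435), lost its call in 19 of 30 alternatives.

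Between the fractions, 3 of the 28 were higher and 3 lower in Fr.B/C in FL, and 3 higher and 9 lower in BM. Of all genes, 9.96% were higher and 12.7% lower in FL, and 13.5% higher and 18.7% lower in BM. Nr2f6, an orphan receptor, was lower in Fr.B/C in FL (-0.67 ± 0.09) and in BM (-1.18 ± 0.09, adjusted p = 1.22e-07). Rora was at least 2.41-fold lower in BM Fr.B/C than in BM Fr.A. Nr2c1 was lower in BM Fr.B/C by 1.36 on its tested probe, while its other 2 probes gave -0.07 and -0.40. Thrb, a thyroid hormone receptor, was higher in Fr.B/C in FL (0.69 ± 0.11, adjusted p = 0.0003).

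All 17 chaperones and co-chaperones on the list, which fold the receptors and hold them ready for hormone, could be tested. In Fr.B/C 2 were higher and 1 lower in FL (17.6%, beside 28.6% of all genes, median -0.02), and in Fr.A 1 was higher and 1 lower (11.8%, beside 29.4% of all genes, median 0.09). The count ranged from 0 to 4 in Fr.B/C and from 1 to 4 in Fr.A over these settings, with the replicate block at the upper end of both, and 5 passed in Fr.B/C without FL_FrBC replicate 2. Fkbp5, a co-chaperone that lowers hormone binding by the glucocorticoid receptor and is itself induced by glucocorticoids, was lower in FL in Fr.A by 1.28 on the tested probe (SE 0.10, adjusted p = 8.77e-08). Its other 2 probes gave -0.29 and -0.06 there, so the size is not settled. Ppid, a cyclophilin, was higher in FL in Fr.B/C (0.41 ± 0.10) and in Fr.A (0.52 ± 0.10) on its tested probe. Its other probe gave 0.29 ± 0.14 and 0.16 ± 0.14. Hsp90aa1 was higher in FL in Fr.B/C (0.45 ± 0.12).

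Of 28 coregulators, which receptors recruit to open or close chromatin, 24 were tested. In Fr.B/C 2 were higher and 6 lower in FL (33.3%, beside 28.6% of all genes, median difference -0.14). In Fr.A 2 were higher and 8 lower (41.7%, beside 29.4% of all genes, median -0.18), with 6 calls in all without FL_FrA replicate 3. Ncoa1, a steroid receptor coactivator, was lower in FL than in BM in Fr.B/C (-1.44 ± 0.14, adjusted p = 2.21e-06) and in Fr.A (-1.57 ± 0.14, adjusted p = 8.71e-07). The corepressor Ncor1 was lower by 0.53 and 0.74 on its tested probe, though of its 3 other probes 1 gave 0.66 and 0.04. Between the fractions, Ppargc1a, the coactivator best known as a partner of Esrra, was higher in Fr.B/C in FL (2.69 ± 0.19, adjusted p = 5.68e-08) and in BM (1.85 ± 0.19, adjusted p = 2.39e-06), with 1.27 in FL and 1.34 in BM at its other probe. Gata3, a factor of the T lineage that also acts with oestrogen receptor alpha in human breast cells, was lower in Fr.B/C in FL (-1.13 ± 0.13) and in BM (-1.96 ± 0.13). Of the NK and T cell markers, 4 of 12 were lower in FL Fr.B/C than in FL Fr.A against 1 higher, and 7 of 12 lower in BM Fr.B/C than in BM Fr.A, and their part was not tested. Of the 24, 8 passed between the FL fractions (5 without FL_FrA replicate 3 and 4 without FL_FrA replicate 4) and 9 between the BM fractions, beside 22.7% and 32.2% of all genes. The fit that paired the fractions of a sort called 14 in FL and 15 in BM, and over 15 settings, that one included, the count ranged from 2 to 14 in FL and from 3 to 15 in BM.

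Genes that glucocorticoids are known to induce moved in both directions. Of 23 tested, 3 were higher and 10 lower in FL in Fr.B/C, with a median of -0.24, and 3 were higher and 10 lower in Fr.A, with a median of -0.21. The share that passed was 56.5% in both fractions, beside 28.6% of all genes in Fr.B/C (13.9% higher and 14.8% lower) and 29.4% in Fr.A (12.2% higher and 17.1% lower). Anxa1, an anti-inflammatory annexin, was lower in FL in Fr.B/C (-1.28 ± 0.08, adjusted p = 7.31e-09) and in Fr.A (-1.20 ± 0.08, adjusted p = 1.93e-08), and so was Nfkbia, an inhibitor of NF-kappa-B (-0.96 ± 0.11 and -1.36 ± 0.11). Errfi1, a feedback inhibitor of EGF receptor signalling, was higher in FL in Fr.B/C (2.29 ± 0.15, adjusted p = 1.66e-08) and in Fr.A (1.64 ± 0.15). Txnip, which binds thioredoxin, was lower in FL in Fr.B/C by 2.17 on the tested probe, and its other probe gave -0.05.

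Between the fractions, 8 of these 23 genes were higher and 5 lower in Fr.B/C in FL, and 7 higher and 3 lower in BM. The shares that passed were 56.5% in FL, beside 22.7% of all genes, and 43.5% in BM, beside 32.2%. Sgk1, a kinase under the control of both corticoid receptors, had log2 ratios of 0.43, 0.38, -0.19 and -0.02 in FL Fr.B/C, against -2.12, -1.55, -2.46 and -2.46 in FL Fr.A. In BM it had 1.78, 1.74, 1.51 and 1.59 in Fr.B/C, against -1.83, -1.78, -1.69 and -1.40 in Fr.A. The fractions lay far apart in both tissues, with differences of 2.30 ± 0.18 in FL (adjusted p = 1.74e-07) and 3.33 ± 0.18 in BM (adjusted p = 2.18e-09). Il1r2, a decoy receptor for interleukin-1, was lower in Fr.B/C in FL (at least 1.95-fold, adjusted p = 1.99e-06) and in BM (-1.84 ± 0.12, adjusted p = 9.65e-09), with -0.22 and -0.68 at its other probe.

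Genes that oestrogen is known to induce in other tissues also moved both ways. Of 24 listed, 18 were tested; 2 were higher and 5 lower in FL in Fr.B/C (median -0.21), and 3 were higher and 5 lower in Fr.A (median -0.13). The share that passed was 38.9% in Fr.B/C, beside 28.6% of all genes, and 44.4% in Fr.A, beside 29.4%. Besides Pgr, the lower genes included Myb, a factor needed for early lymphopoiesis (-0.73 ± 0.10 in Fr.B/C and -1.08 ± 0.10 in Fr.A, with -0.63 and -0.30 in Fr.B/C and -0.95 and -0.48 in Fr.A at its other probes), and Ltf, lactoferrin, also a neutrophil granule protein (-2.82 ± 0.59 in Fr.B/C, adjusted p = 0.00213). The neutrophil gene Ngp was lower in FL as well, with -2.44 in Fr.B/C and -2.15 in Fr.A, and its cells' part in the Ltf value was not tested. Ccnd1, cyclin D1, was higher in FL in Fr.A, with log2 ratios of 0.07, -0.12, -0.04 and -0.07 in FL against -2.20, -2.42, -2.45 and -2.45 in BM (difference 2.34 ± 0.08, adjusted p = 2.61e-11). Tff1, a secreted trefoil peptide, was higher in FL in Fr.A (0.96 ± 0.12), and the growth factor Vegfa in Fr.B/C (0.71 ± 0.12, with 1.00 and 0.09 at its other probes). Greb1, Wnt4, Areg, Krt19, Efemp1 and Rara were too dim to test.

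Of 28 tested genes of mitochondrial energy supply and related functions that Esrra is known to bind or activate, 4 were higher and 2 lower in FL in each fraction, with medians of -0.11 in Fr.B/C and 0.17 in Fr.A. Sirt3, a mitochondrial deacetylase, was lower in FL in Fr.B/C (-0.79 ± 0.12, adjusted p = 0.000123) and in Fr.A (-0.77 ± 0.12, adjusted p = 0.000133). It was also lower in Fr.B/C than in Fr.A in FL (-0.98 ± 0.12) and in BM (-0.96 ± 0.12), the directions in which Esrra differed. A link between Sirt3 and Esrra was not tested. Cs, citrate synthase, was higher in FL in Fr.A (0.40 ± 0.09, adjusted p = 0.00433). The 6 calls in Fr.B/C became 3 without BM_FrBC replicate 1, 2 or 3 or FL_FrBC replicate 3, and 2 without FL_FrBC replicate 4. The share that passed was 21.4% in both fractions, beside 28.6% of all genes in Fr.B/C and 29.4% in Fr.A. Between the fractions, 2 of the 28 were higher and 2 lower in Fr.B/C in FL (14.3%, beside 22.7% of all genes). In BM 5 were higher and 2 lower in Fr.B/C (25%, beside 32.2% of all genes).

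Of 22 tested enzymes and carriers of steroid metabolism, 2 were higher and 3 lower in FL in Fr.B/C (median 0.03), and 2 higher and 5 lower in Fr.A (median -0.07). The share that passed was 22.7% in Fr.B/C, beside 28.6% of all genes, and 31.8% in Fr.A, beside 29.4%. Stard3, a cholesterol transporter, was lower in FL in Fr.B/C (-0.61 ± 0.09, adjusted p = 0.000163) and in Fr.A (-0.62 ± 0.09, adjusted p = 0.00013). Tspo, a mitochondrial membrane protein studied for cholesterol transport, was lower in FL in Fr.B/C (-0.57 ± 0.11). Srd5a1, a steroid reductase that makes dihydrotestosterone, was higher in FL in Fr.A (0.66 ± 0.11, adjusted p = 0.000438) and lower in Fr.B/C than in Fr.A in FL (-1.03 ± 0.11) and in BM (-0.41 ± 0.11), where its other probe gave 0.33, -0.18 and -0.17. Hsd11b2, which inactivates glucocorticoids, and Hsd17b2 were too dim to test.

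**Figure D5:**
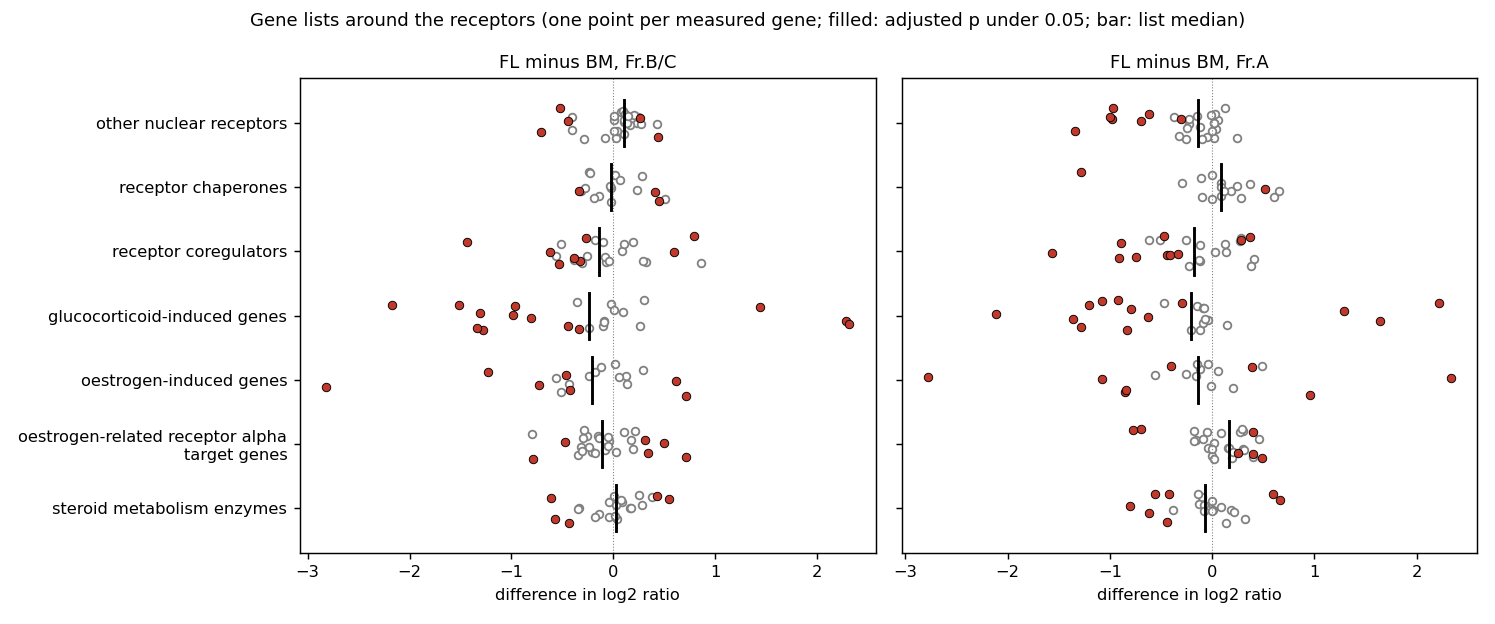
Difference in log2 ratio, FL minus BM (horizontal axis), of every tested gene of 7 lists in Fr.B/C (left) and Fr.A (right), with the list median as a bar. Filled points passed at an adjusted p under 0.05. List medians lie between -0.24 and 0.17, and single genes reach from -2.82 (Ltf) to 2.34 (Ccnd1).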

How the data were processed

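RNA of 16 sorted samples was amplified from 100 ng and hybridised with a common reference on 2-colour Agilent arrays, with the sample in Cy5 on replicates 1 and 3 and in Cy3 on replicates 2 and 4. Per the file headers, intensity values come from version 8.5.1.1 of Feature Extraction. The authors' deposited table holds log2 ratios, and limma is named in the submitters' processing notes without a version. Its values were joined by probe, ran as sample over reference, and had array medians of -0.00726 to 0.0201 and a correlation of 0.93 to 0.951 with the ratios computed here. Whether the authors centred them further stays unknown.

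Intensities were background-corrected with normexp (offset 50, which compresses ratios of dim probes) and loess-normalized within arrays with limma 3.58.1 in R 4.3.3. Outlier spots were dropped. A probe was kept if its sample channel was well above background on at least 3 of 4 arrays of a group and it was usable on 12 or more, and 27521 of 41174 probes met this. The kept probe with the highest mean log2 intensity over the sample and reference channels stood for a gene. For Nr3c1 this was the probe with the brighter reference (signal 376 to 665, against 66.8 to 262). Its sample channel was well above background on 10 arrays, against 15 for the other probe. The fit held group and dye over all 16 arrays (11 residual degrees of freedom), with Benjamini-Hochberg adjustment over 22228 genes or unnamed transcripts and a threshold of 0.05. All adjusted p-values are from limma and rest on the spread between the arrays of a group, each from its own sort. The main fit did not pair the 2 fractions of a sort and treated them as separate samples. In the fit that paired them, 7174 genes passed between the FL fractions, against 5040 in the main fit. Between the BM fractions 9233 passed, against 7158. The code was tested on simulated data.

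A sort gave 1 sample of each fraction, per the labels' protocols, so numbers pair the fractions within a tissue. Deviations from the group means of same-numbered samples correlated at 0.42 to 0.52 in BM and 0.25 to 0.38 in FL. In FL, Fr.B/C samples 1 and 3 correlated best with Fr.A samples 2 and 4 (0.27 and 0.42), which shared their scan sessions. Across tissues same-numbered samples correlated at 0.28 to 0.48 in Fr.B/C and -0.26 to 0.15 in Fr.A. No values of different numbers stand beside these, so they do not show pairing, and the labels give separate sorts. The replicate block was the sort in the fraction comparisons and the number in FL against BM.

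The members, lists and tests were chosen with earlier results of these data known. Beside the members, the genes named are close relatives, up to 4 genes per list and comparison with the smallest adjusted p, and the 5 genes most like Esr1, Nr3c1 or Esrra. Nr2f6 in Fr.B/C, Srd5a1 in BM, Ngp and the genes too dim to test were named after their values were seen. Some genes that the rule names are not reported here. Alternatives were other background corrections, normalizations, filters, dye subsets, blocks and leaving out each array.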

Additional observations from a re-analysis of the deposited data

Results flagged for a closer look

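In 259 groups of 4 arrays, 8 held an array that stood far from the other 3, where chance gives about 1 in 20 for 4 like arrays. The dye effect was left in these values and each group held 2 arrays of either dye, so that rate need not apply. Among the receptors this was Esr1 probe 2 in FL Fr.B/C replicate 1, at 0.08 and not well above background. The others were Ccnd1 in BM Fr.A replicate 1 (-2.20), Ddx17 in BM Fr.B/C replicate 2 (-0.35), Nr1d1 in FL Fr.A replicate 2 (-0.86), Nr4a1 in FL Fr.A replicate 4 (-1.36), Pias1 in BM Fr.B/C replicate 3 (1.04), and Tff1 in FL Fr.B/C replicate 1 (0.19) and BM Fr.B/C replicate 4 (0.28).

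The step between the fractions, Fr.B/C minus Fr.A, differed between FL and BM for 13 of 56 named genes by limma's interaction term, as it did for 7.35% of all genes. The named genes were picked for small p-values, so their count is not a rate. Of these, 8 had a positive difference, FL step minus BM step. Rora had a step of -0.08 in FL and -1.43 in BM (difference 1.35, adjusted p = 0.000245), but it was well above background on 0 arrays of FL Fr.B/C, 0 of BM Fr.B/C, 1 of FL Fr.A and 4 of BM Fr.A, so neither step is measured in full. Fkbp5 had -0.44 in FL and -1.37 in BM (difference 0.94, adjusted p = 0.000497), with steps of -0.22 in FL and -0.19 in BM at another probe and of 0.46 in FL and 0.02 in BM at the last one. The difference was 0.78 for Nr2c1 (adjusted p = 0.0387), while its other 2 probes gave -0.18 and -0.23, so its direction is not settled. It was 0.68 for Il1r2 (adjusted p = 0.0194, with 0.46 at its other probe), which no FL Fr.B/C array read well above background, so that its step in FL is only a bound. It was 1.01 for Ppargc1b (adjusted p = 0.0136, with 0.57 at its other probe), 0.83 for Gata3 (adjusted p = 0.012), 0.51 for Nr2f6 (adjusted p = 0.0289) and 0.49 for Fdxr (adjusted p = 0.0403). It was negative for Ccnd1 (-2.21, adjusted p = 8.9e-08, with steps of -3.28 in FL and -1.07 in BM), Txnip (-1.09, adjusted p = 0.00169, but 0.04 at its other probe), Sgk1 (-1.03, adjusted p = 0.0247), Tff1 (-0.67, adjusted p = 0.0216) and Srd5a1 (-0.62, adjusted p = 0.0309, but 0.00 at its other probe).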

How the results depend on the processing

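Differences below are FL minus BM for the tissues and Fr.B/C minus Fr.A for the fractions, and the cause of a change was not tested unless stated. Esr1 kept its direction in both tissue comparisons in every alternative run. It was -6.59 in Fr.B/C and -5.42 in Fr.A from the scanner's processed signals, -6.19 and -5.13 in the deposited table, and -4.08 and -3.00 without background subtraction. Scaling between arrays gave -4.52 in Fr.B/C, 1.25 between the BM fractions and -1.40 for the difference between the fraction steps. In Fr.A, arrays with the sample in Cy5 gave -3.09 and those in Cy3 -3.47.

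Esrra kept its direction throughout but lost calls in several alternatives. Averaging arrays 1 with 2 and 3 with 4 gave -0.35 in Fr.B/C (adjusted p = 0.118), -0.38 in Fr.A (0.0902), -0.30 between the FL fractions (0.211) and -0.33 between the BM fractions (0.126). In the same order, Cy5 arrays alone gave -0.39, -0.39, -0.28 and -0.28, and Cy3 arrays alone -0.30, -0.37, -0.31 and -0.38, none of them past the threshold. The Esrra fraction step missed the threshold in FL and BM with median centring (-0.40 and -0.32) and with processed signals (-0.31 and -0.34), and in FL in the deposited table (-0.33) and with a trended, robust fit (-0.30). Leaving out each array gave -0.33 to -0.25 in FL and -0.38 to -0.25 in BM.

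Nr3c1 in Fr.B/C missed the threshold when arrays were averaged (-0.38) and with Cy5 (-0.40) or Cy3 (-0.36) arrays alone. A filter of 12 arrays well above background removed its tested probe, and the other probe gave 0.03 (adjusted p = 0.825). With processed signals the Nr3c1 difference passed in Fr.A (-0.61), between the BM fractions (0.98) and between the fraction steps (-1.12), and the deposited table gave 0.83 and -0.93 for the last 2. With the replicate block it passed between the BM fractions (0.25, adjusted p = 0.041), and the block changed no other call of the receptors tested. Leaving out each array gave 0.18 to 0.33 there. Nr3c2 passed in no alternative.

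Over all genes, 6363 passed in Fr.B/C (48.5% higher in FL) and 6526 in Fr.A (41.7%), against 4357 (20.3%) and 4127 (22.9%) with median centring, which also called 4179 against 7158 between the BM fractions and 2696 (31.6% higher in Fr.B/C) against 5040 (43.9%) between the FL fractions. Averaged arrays gave 3735, 3990, 4708 and 2917 in the order Fr.B/C, Fr.A, BM and FL fractions, Cy5 arrays alone 1682, 2303, 2702 and 1705, and Cy3 arrays alone 1547, 2103, 2701 and 1283. The fraction steps differed for 1633 genes, against 3613 with the replicate block, 3003 and 3305 with session as a random or fixed block, 923 with scaling, 1086 with processed signals, 429 with median centring, and 250, 33 and 11 with averaged, Cy5 or Cy3 arrays. Values of dim probes, such as Esr1 in FL, Esr2 and Nr3c1, are limited by signal over background.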
